A study of Mus musculus with 74 samples.

Results

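Cd11b-positive cells sorted from the brains of Trem2 heterozygous (Trem2 +/-) mice were compared after 12 weeks on cuprizone diet and after 12 weeks on control diet. The comparison took the microglia libraries labelled Trem2 +/- and 12 weeks, 8 of the 74 libraries of the series, from 4 animals on chow with 0.2% cuprizone and 4 animals on control chow. Each diet group held 1 male and 3 females, and each library is labelled as 1 animal. Animals of both groups carry 1 knockout allele of Trem2, which the labels call a heterozygous knockout. The labels give no promoter, exon or line for that allele and no age for the animals. The brains came from mice perfused with PBS and were dissociated whole, so that no brain region can be told from another. Viable cells were sorted, and the Cd11b-positive fraction, which the labels call microglia, was sequenced with a 3′ tag method. Cd11b is also carried by border macrophages, monocytes and neutrophils. The animals used for comparison were wild-type (3 on cuprizone, 2 on control diet) and Trem2 knockout (3 and 3) mice at 12 weeks and Trem2 +/- mice at 5 weeks (3 and 3). The question was how microglia with a reduced Trem2 dose respond to a long demyelinating diet.

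Cuprizone, which chelates copper, causes mature oligodendrocytes to die, so that myelin breaks down and its cholesterol-rich debris must be taken up by microglia. Trem2 is a surface receptor for lipids and lipoproteins that has no signalling tail of its own and works through the adaptors Tyrobp and Hcst. In demyelination and in models of neurodegeneration, Trem2 is needed for the full switch of microglia from a homeostatic state to a disease-associated state. That state is marked by Apoe, Lpl, Cst7, Itgax and Clec7a and by genes of lysosomes and lipid handling.

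The 8 libraries held 1081800 to 2083569 counts, within the range of the 37 microglia libraries of the series (1043961 to 3945694). Levels are given as CPM, counts scaled to library sizes normalized by TMM, for the cuprizone animals 1040, 2476, 6296 and 9469 and the control animals 943, 944, 7674 and 9463, in that order throughout. Control animal 7674 stood apart from the other 7 libraries, at 41.3 on the first principal component of log2 CPM against -24.5 to 0.3, and had the lowest total count. Tags of mitochondrially encoded genes took 4.30% ± 0.24 of the counts in the cuprizone animals and 2.25% ± 0.76 in the control animals (SD, n = 4 each; two-sided exact permutation test, p = 0.0286, the smallest p that 4 against 4 allows). Cytosolic ribosomal protein genes took 2.68% ± 0.21 and 1.27% ± 0.11 of the counts (exact permutation p = 0.0286). Total counts (p = 0.314), the share of genes that do not code for protein (p = 0.714) and the number of genes detected (p = 0.857) did not pass the same exact permutation test. The labels give no RNA integrity value for these 8 libraries. In a bulk sample, fewer cells of a type and less RNA per cell cannot be told apart.

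Of 14087 genes tested, 359 passed an adjusted p under 0.05 in edgeR's quasi-likelihood test, 2.55% of the genes tested. Of these, 265 were higher (1.88%) and 94 lower (0.667%) on cuprizone. These 2.55%, 1.88% and 0.667% are the background for each list count given below. The background is not matched for level. Median average log2 CPM was 7.25 for the rises, 7.17 for the falls and 4.04 for the genes tested. A single call in a short list is a result about that gene and not about the list. The calls that rose had a median log2 fold change of 1.56, and those that fell had a median of -1.32. The median over the genes tested was -0.05. In 257 of the rises and 82 of the falls (1.82% and 0.582% of the genes tested) the 4 cuprizone animals did not overlap the 4 control animals. Called or not, groups without overlap made up 4.69% of the genes tested on the higher side and 3% on the lower side. Genes that do not code for protein made up 9 of the 265 rises (3.4%), 13 of the 94 falls (13.8%) and 15% of the genes tested. Without control animal 7674 the rises numbered 202 and the falls 62, and 239 of the 359 calls were shared. The falls numbered 54, 51 and 48 without cuprizone animal 2476, 6296 or 9469, so that their count moved by over 1.5 times with each of these libraries. Of the 114 called genes that the naming rule selected, 74 kept the call in each of the 8 fits that left out a library.

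**Figure D1:**
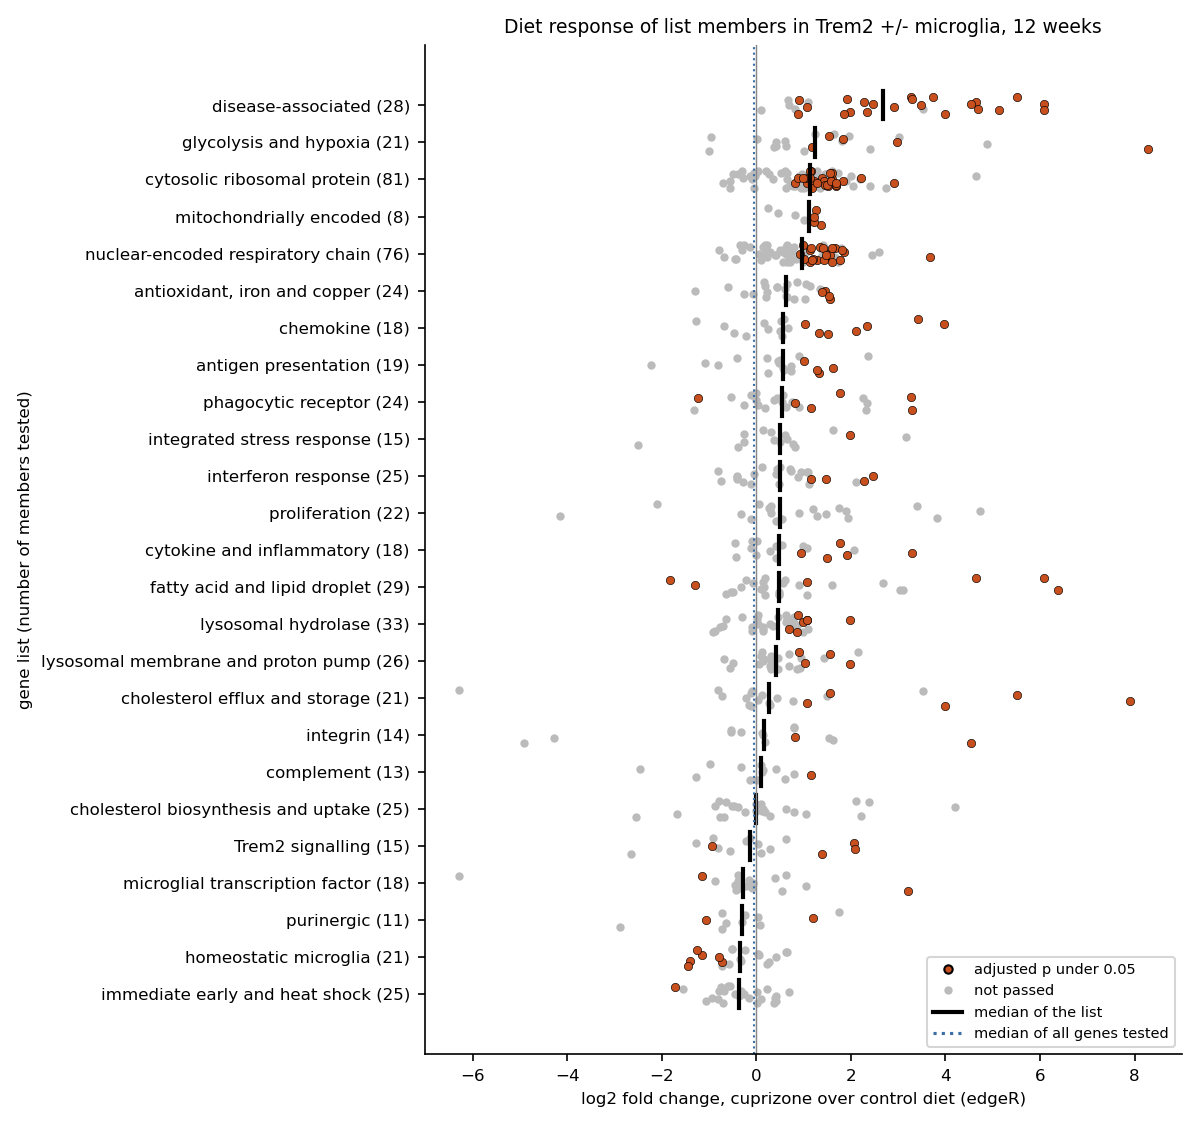
Log2 fold changes, cuprizone over control diet, of the members of 25 gene lists in Trem2 +/- microglia at 12 weeks, with the number of members tested in brackets. Orange points passed an adjusted p under 0.05, grey points did not, black bars are list medians and the dotted line is the median of the 14087 genes tested, -0.05; the disease-associated list has the highest median, 2.69.

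The Trem2 pathway rose at the receptor and at its adaptors. Trem2 itself (chromosome 17, 48346401 to 48354147, plus strand) had 924, 724.5, 971 and 1051 CPM in the cuprizone animals, against 429, 319, 346 and 302 CPM in the control animals. The groups did not overlap, and the rise was 1.40 ± 0.28 on the log2 scale (adjusted p = 0.0012). Trem2 levels of other animals lay at 822 to 1037 CPM in wild-type cuprizone animals and 703 to 900 CPM in wild-type control animals at 12 weeks, and at 110 to 244 CPM and 107 to 213 CPM in the knockout animals of the same diets. The cuprizone-fed heterozygotes overlapped the wild types of both diets, and the control-fed heterozygotes were between the knockouts and the wild types. Since the method reads a transcript only by its 3′ end and the deleted part of the gene is not given, these levels do not check the genotype.

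Tyrobp, the adaptor that carries the activating motif for Syk, had 4415, 6183, 5079 and 6192 CPM in the cuprizone animals, against 1600, 1448, 949 and 1286 CPM in the control animals. Each cuprizone animal was above each control animal (2.07 ± 0.33, adjusted p = 0.000149). Hcst, the adaptor that recruits phosphoinositide 3-kinase, had 139, 85.1, 186 and 102 CPM in the cuprizone animals, against 34.2, 40.4, 9.56 and 36.7 CPM in the control animals. Its groups did not overlap either (2.08 ± 0.45, adjusted p = 0.00262). Tyrobp and Hcst lie side by side on chromosome 7 (30413760 to 30417585 on the plus strand and 30417712 to 30419854 on the minus strand), and strand use in the counting is not given in the sources used here, so that tags of these neighbours may not be fully separated.

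Of 15 genes of the signalling list the 3 that rose were Trem2, Tyrobp and Hcst themselves, and of the other members 1 fell and 11 did not pass. The list median was -0.13. Inpp5d, the lipid phosphatase SHIP1 that opposes phosphoinositide 3-kinase, had 284, 270.3, 276 and 355 CPM in the cuprizone animals, against 512.5, 567, 696 and 504 CPM in the control animals. No overlap was seen (-0.94 ± 0.23, adjusted p = 0.00998), but the call was lost without 2476 or 7674 (adjusted p = 0.0669 at most). The kinase Syk, at -0.92, and the phospholipase Plcg2, at 0.03 on the log2 scale, did not pass.

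The disease-associated genes moved together. Of 28 members tested 22 rose (78.6%, against 1.88% of the genes tested), none fell, and the 6 others were positive without passing. Their median log2 fold change was 2.69. Their summed level was 47783 to 55683 CPM in the cuprizone animals and 10952 to 12442 CPM in the control animals, and 20 to 23 members rose when any 1 library was left out. The list was drawn up with earlier results of these data known, and so its direction is not independent evidence.

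**Figure D2:**
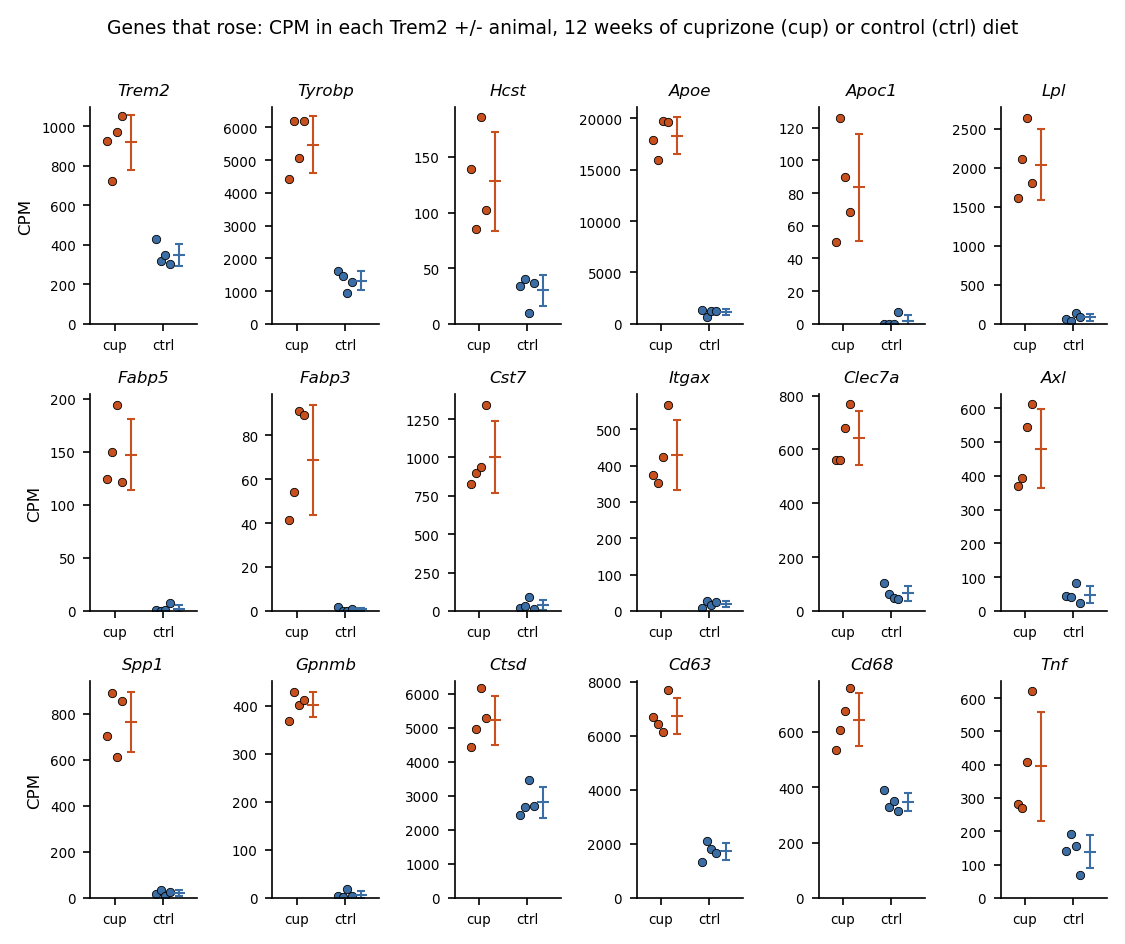
CPM of 18 genes that rose, in each of the 4 cuprizone (cup, orange) and 4 control (ctrl, blue) Trem2 +/- animals at 12 weeks. Points are animals, the bar beside them is the mean ± 1 SD, cut at 0, and each vertical axis starts at 0. In each panel the 4 cuprizone animals lie above the 4 control animals.

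Apoe, the lipoprotein that carries cholesterol out of glia, had 17879.5, 15975, 19762 and 19657 CPM in the cuprizone animals, against 1383, 676, 1287 and 1219 CPM in the control animals. That was a rise of 3.99 ± 0.24 on the log2 scale (adjusted p = 2.91e-19), with a wide gap between the highest control and the lowest cuprizone animal. Apoe stands on chromosome 7 (19696109 to 19699188, minus strand) beside 2 further apolipoprotein genes that rose. Apoc1 (19689481 to 19692660, minus strand), an inhibitor of lipoprotein uptake and lipases, had 50.1, 126, 89.7 and 68.3 CPM in the cuprizone animals, against 0, 0, 0 and 7.33 CPM in the control animals. Of the control animals 9463 alone had tags of it (5.51 ± 1.16, adjusted p = 0.00212). Apoc4 (19678083 to 19681479, minus strand) had 23.2, 21.4, 13.6 and 0.767 CPM in the cuprizone animals, against 0, 0, 0 and 0 CPM in the control animals. It had no tag in any control animal and was at least 30.9-fold higher on cuprizone, against a floor of 3 counts over the control group (adjusted p = 0.0481). That call was lost in 7 of the 8 fits that left out a library, all but the one without 9469 (adjusted p = 0.129 at most). Apoc2, a member of the same gene cluster, had no tag in the 8 libraries.

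Other genes of cholesterol export and storage moved less evenly. Of 21 tested 5 rose and none fell by edgeR (2 were lower at an unadjusted p under 0.05, 0 in DESeq2 and 1 in voom), with a list median of 0.27. The rises numbered 3 without 943 or 7674. Npc2, which hands cholesterol out of the lysosome, had 2331, 1992, 1936 and 2805 CPM in the cuprizone animals, against 833, 773, 721 and 754 CPM in the control animals. Its groups did not overlap (1.56 ± 0.20, adjusted p = 1.19e-07). Soat1, which esterifies cholesterol for storage in droplets, had 227, 223, 219.6 and 227 CPM in the cuprizone animals, against 100.1, 85.3, 82.6 and 160 CPM in the control animals. The 4 cuprizone animals were close together and above the controls (1.06 ± 0.28, adjusted p = 0.0197), but the call was lost without 943, 944 or 7674 (adjusted p = 0.0855 at most). The liver X receptor target and exporter Abca1 had 214, 318, 316 and 130.4 CPM in the cuprizone animals, against 292, 395, 182.5 and 187 CPM in the control animals. These groups overlapped widely, and Abca1 did not pass (-0.11 ± 0.27, adjusted p = 0.929). Of 25 genes of cholesterol synthesis and uptake 0 passed in edgeR, DESeq2 or voom, 1 was higher and 0 lower at an unadjusted p under 0.05, and the median was -0.01. The summed level of these genes was low, 478 to 788 CPM in the cuprizone animals and 587 to 762 CPM in the control animals.

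Of 29 genes of fatty acid handling and lipid droplets 4 rose (Lpl, Fabp5, Fabp3 and Scd2) and 2 fell, with a median of 0.48. Lpl, the lipase that frees fatty acids from lipoproteins (chromosome 8, 68880491 to 68907448, plus strand), had 1607, 2111, 2645 and 1802 CPM in the cuprizone animals, against 62.8, 34.1, 142 and 90 CPM in the control animals. The lowest cuprizone animal was far above the highest control (4.64 ± 0.44, adjusted p = 3.1e-08). Fabp5, a fatty acid binding protein, had 124.5, 149, 194 and 121 CPM in the cuprizone animals, against 0.622, 0, 0.869 and 7.33 CPM in the control animals. Control animal 9463 was the highest of its group and stayed far below the cuprizone animals (6.09 ± 1.20, adjusted p = 0.00252). Fabp3, the heart-type binding protein, had 41.3, 53.9, 91.1 and 89 CPM in the cuprizone animals, against 1.87, 0, 0 and 0.667 CPM in the control animals. Tags in the control animals were at or close to 0 (6.39 ± 1.09, adjusted p = 0.000108). Scd2, a desaturase, lost its call without 6296, 9469, 944 or 7674 (adjusted p = 0.0988 at most). The falls, Lipe and Acsl3, were lost in 5 and 7 of the 8 fits that left out a library, so that their count was 0 or 1 in each of these fits. The droplet coat gene Plin2, at 1.08, and the scavenger receptor gene Cd36, at 0.90 on the log2 scale, did not pass (adjusted p = 0.649 and 0.643).

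Among the surface and secreted markers of the disease-associated state, Cst7, a lysosomal inhibitor of cysteine proteases, had 829, 899, 938.5 and 1344 CPM in the cuprizone animals, against 21.8, 33.5, 89.5 and 12.7 CPM in the control animals. The groups were separated by a wide gap (4.70 ± 0.49, adjusted p = 1.21e-07). Itgax, the integrin chain CD11c, had 373, 352, 425 and 568 CPM in the cuprizone animals, against 7.46, 27.8, 15.7 and 24 CPM in the control animals. All cuprizone animals were above all control animals (4.55 ± 0.60, adjusted p = 1.29e-05). Clec7a, the receptor Dectin-1 for fungal glucans, had 562, 560.1, 680.2 and 768 CPM in the cuprizone animals, against 103, 63.2, 48.7 and 43.3 CPM in the control animals. Values of the diets were apart (3.27 ± 0.31, adjusted p = 6.81e-11). Axl, a receptor tyrosine kinase for apoptotic cells, had 370.3, 394, 545 and 611.5 CPM in the cuprizone animals, against 45.4, 39.8, 83.5 and 24 CPM in the control animals. Again there was no overlap (3.30 ± 0.41, adjusted p = 2.25e-07).

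Spp1, the secreted matrix protein osteopontin, had 705, 889, 611 and 857 CPM in the cuprizone animals, against 14.9, 36, 9.56 and 25.3 CPM in the control animals. Levels in the control animals were low throughout (5.14 ± 1.04, adjusted p = 0.00455). Gpnmb, a membrane glycoprotein of lipid-laden macrophages, had 369, 429, 400.4 and 411 CPM in the cuprizone animals, against 3.73, 1.26, 18.2 and 3.33 CPM in the control animals. Control animal 7674 was the highest of its group and the cuprizone animals were close together (6.08 ± 1, adjusted p = 0.000592). Igf1, a growth factor for oligodendrocytes and their precursors, had 261, 336, 389 and 300 CPM in the cuprizone animals, against 33.6, 9.47, 42.6 and 28.7 CPM in the control animals. The groups did not overlap (3.48 ± 0.54, adjusted p = 8.14e-05). Cd52, a small surface glycoprotein of leukocytes, had 1016, 1213, 1276 and 1327 CPM in the cuprizone animals, against 247, 128, 401 and 214 CPM in the control animals. Control animal 7674 was the highest of the controls (2.28 ± 0.24, adjusted p = 1.86e-09). Lgals3, Ank and Lyz2 also rose, by 3.74 ± 0.65, 2.91 ± 0.43 and 1.85 ± 0.23, and these genes, like the others of this and the preceding paragraph, kept the call without each of the 8 libraries. Of the members that did not pass, Ch25h, which makes 25-hydroxycholesterol, was at 3.52 (adjusted p = 0.0757) and the tetraspanin gene Cd9 at 0.69 (adjusted p = 0.658).

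The sequences before the start sites of genes that rose are shown because the rise was shared by genes of unlike function. RefSeq windows of 300 bases on GRCm38.p6, 250 before to 50 after a start, were at hand for 197 of the 265 genes that rose, 64 of the 94 that fell and 9883 of the 14087 tested. The AP-1 site TGANTCA, searched on both strands, stood in the windows of 9.64% of the genes that rose, 10.9% of those that fell, 6% of those tested and 8.97% of the 27025 genes of the whole promoter table. The E-box CACGTG, bound by factors that drive lysosomal genes, stood in 10.2%, 9.38%, 11.8% and 8.09% of the same sets. The PU.1 core GAGGAA stood in 30.5%, 40.6%, 31.1% and 31.3%, and the interferon-stimulated response element in 6.09%, 1.56%, 3.97% and 3.99%. Matches of different patterns may share letters. Printed 5′ to 3′ on the strand of the gene, with the AP-1 site in capitals, are the windows of Trem2 (chr17:48346151-48346450, plus strand), Itgax (chr7:128129300-128129599, plus strand), Gpnmb (chr6:49036268-49036567, plus strand) and Cst7 (chr2:150570165-150570464, plus strand). They were chosen, after their matches were seen, as leading genes of the rise. Ctsd (chr7:142387778-142388077, minus strand) is shown with its 2 E-boxes in capitals.
Trem2: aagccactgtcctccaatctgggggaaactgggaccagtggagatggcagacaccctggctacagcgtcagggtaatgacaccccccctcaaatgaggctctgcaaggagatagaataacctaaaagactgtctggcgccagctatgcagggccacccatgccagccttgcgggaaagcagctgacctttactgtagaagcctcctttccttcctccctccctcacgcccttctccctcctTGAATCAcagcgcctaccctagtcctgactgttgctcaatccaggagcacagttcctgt
Itgax: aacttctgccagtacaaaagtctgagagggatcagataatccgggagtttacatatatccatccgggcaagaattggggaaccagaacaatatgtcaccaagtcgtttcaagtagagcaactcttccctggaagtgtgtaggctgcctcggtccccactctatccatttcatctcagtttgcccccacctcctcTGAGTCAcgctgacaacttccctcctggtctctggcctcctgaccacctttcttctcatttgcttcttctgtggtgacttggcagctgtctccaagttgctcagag
Gpnmb: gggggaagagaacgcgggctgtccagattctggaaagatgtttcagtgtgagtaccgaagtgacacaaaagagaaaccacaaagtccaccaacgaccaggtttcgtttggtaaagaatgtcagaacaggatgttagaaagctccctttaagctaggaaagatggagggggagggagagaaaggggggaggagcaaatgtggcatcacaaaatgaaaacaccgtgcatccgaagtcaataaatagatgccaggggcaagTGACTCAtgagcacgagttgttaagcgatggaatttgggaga
Cst7: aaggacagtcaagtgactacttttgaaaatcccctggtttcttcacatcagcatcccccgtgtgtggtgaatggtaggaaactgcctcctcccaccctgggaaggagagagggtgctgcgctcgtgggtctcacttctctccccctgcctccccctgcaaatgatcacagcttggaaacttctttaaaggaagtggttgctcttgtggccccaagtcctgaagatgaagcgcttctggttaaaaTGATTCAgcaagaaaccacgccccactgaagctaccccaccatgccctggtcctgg
Ctsd: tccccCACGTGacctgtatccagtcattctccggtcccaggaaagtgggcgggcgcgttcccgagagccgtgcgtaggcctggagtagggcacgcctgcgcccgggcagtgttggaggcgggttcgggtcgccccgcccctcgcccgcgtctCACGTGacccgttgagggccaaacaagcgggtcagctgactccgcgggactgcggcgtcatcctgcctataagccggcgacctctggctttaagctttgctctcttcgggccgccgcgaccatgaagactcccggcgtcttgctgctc
Counted from the annotated start as position 1, the AP-1 match began at -9 in Trem2, -56 in Itgax, 9 in Gpnmb and -6 in Cst7, and the E-boxes of Ctsd began at -245 and -98. A match describes letters and shows no binding. The windows of Apoe hold neither the AP-1 site nor the E-box.

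A minority of lysosomal genes rose. Of 33 hydrolases 7 rose and none fell (1 was lower at an unadjusted p under 0.05, and 0 in DESeq2 and voom), with a median of 0.45, and of 26 membrane and proton pump genes 4 rose and none fell, with a median of 0.41. In DESeq2 2 of the 26 were lower and in voom 1. Ctsd, the aspartic protease whose window is printed above, had 4441, 4973, 6164 and 5288 CPM in the cuprizone animals, against 2426, 2669, 3473 and 2688 CPM in the control animals. No overlap was seen (0.89 ± 0.19, adjusted p = 0.00207). Ctsb, a cysteine protease, had 1723, 1938, 2399 and 2865 CPM in the cuprizone animals, against 1139, 1038, 1004 and 1055 CPM in the control animals. The control animals were close together and below the cuprizone animals (1.07 ± 0.20, adjusted p = 0.000322). Gla, which degrades globotriaosylceramide, had 121, 129, 132 and 101 CPM in the cuprizone animals, against 19.9, 60.6, 22.6 and 18.7 CPM in the control animals. Control animal 944 was the highest of the controls (1.98 ± 0.42, adjusted p = 0.00207). Ctsh also rose (0.99 ± 0.22). Grn, Ctsa and Man2b1 rose too, but lost the call in 6, 4 and 2 of the 8 fits that left out a library. In these fits 5 to 7 hydrolases rose.

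On the lysosomal membrane, the tetraspanin gene Cd63 had 6693, 6459, 6141 and 7701 CPM in the cuprizone animals, against 1342, 2111, 1814 and 1655 CPM in the control animals. The groups were far apart (1.97 ± 0.20, adjusted p = 2.55e-10), though near-identical pseudogene copies of Cd63 may share its tags. Cd68, a glycoprotein of macrophage lysosomes, had 534.5, 607.5, 675 and 759.6 CPM in the cuprizone animals, against 390, 328, 349 and 315 CPM in the control animals. There was no overlap (0.90 ± 0.21, adjusted p = 0.00719). Atp6v1f, a subunit of the proton pump, rose too (1.02 ± 0.24, adjusted p = 0.00653). Summed over the hydrolases, levels were 46678 to 50313 CPM in the cuprizone animals and 28066 to 35183 CPM in the control animals.

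A minority of receptors for debris and dying cells changed. Of 24 phagocytic receptor genes 5 rose, 1 fell and 18 did not pass, with a median of 0.55. A second gene fell without 1040. Of the rises, Itgb5 lost its call in 7 of the 8 fits that left out a library (adjusted p = 0.123 at most). Axl and Clec7a are described above. Fcer1g, the signalling chain of Fc receptors, had 1275, 1552, 1305 and 1881 CPM in the cuprizone animals, against 1057, 648, 425 and 629 CPM in the control animals. Values of the diets were apart (1.16 ± 0.23, adjusted p = 0.000782). Mertk, the relative of Axl that serves resting microglia, had 634, 529, 908 and 476.5 CPM in the cuprizone animals, against 1121, 970.2, 2675 and 1399 CPM in the control animals. The cuprizone animals were below the control animals, of which 7674 was far the highest (-1.24 ± 0.25, adjusted p = 0.0011), and the fall kept its call without that animal.

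Genes of homeostatic microglia fell in part. Of 21 tested 6 fell and none rose by edgeR (2 were higher at an unadjusted p under 0.05, 1 in DESeq2 and 0 in voom), with a median of -0.35. The falls numbered 4 to 7 when any 1 library was left out. Tmem119, a surface protein of microglia, had 321, 470.4, 306 and 354 CPM in the cuprizone animals, against 894, 944, 1086 and 902 CPM in the control animals. All cuprizone animals were below all control animals (-1.40 ± 0.23, adjusted p = 6.1e-05). Sall1, a transcription factor of microglial identity, had 768, 611, 730.4 and 499.5 CPM in the cuprizone animals, against 1313, 1390, 1448 and 1615 CPM in the control animals. The groups did not overlap (-1.15 ± 0.20, adjusted p = 0.000142). Slc2a5, a fructose transporter, had 196, 196, 215 and 74.4 CPM in the cuprizone animals, against 441, 387, 528 and 488 CPM in the control animals. Cuprizone animal 9469 was the lowest of the 8 (-1.44 ± 0.25, adjusted p = 0.000142). Adgrg1, an adhesion receptor, had 303, 223.5, 245 and 260.1 CPM in the cuprizone animals, against 384, 625, 796 and 689 CPM in the control animals. Here too the groups were apart (-1.26 ± 0.22, adjusted p = 0.000142). Selplg and Siglech fell as well, by 0.80 and 0.72 on the log2 scale, but Selplg lost its call without 1040 or 6296 (adjusted p = 0.0765 at most) and Siglech without 1040, 6296, 9469, 943 or 9463 (adjusted p = 0.264 at most).

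Other defining genes of microglia did not pass with all libraries in the fit. Cx3cr1, the fractalkine receptor, had 10407, 9294, 11049.8 and 8394 CPM in the cuprizone animals, against 11112, 15063.5, 15822 and 14006 CPM in the control animals. The cuprizone animals were below the control animals without overlap, yet the test did not pass (-0.52 ± 0.19, adjusted p = 0.17). P2ry12, the ADP receptor, had 1505, 1664, 1570 and 1461 CPM in the cuprizone animals, against 3201, 3141, 1605 and 2543 CPM in the control animals. Control animal 7674 was at the level of the cuprizone animals (-0.73 ± 0.22, adjusted p = 0.0613). Without that animal the fall of P2ry12 passed (adjusted p = 0.0302). The summed level of 12 microglia markers was 45276 to 46546 CPM in the cuprizone animals and 39506 to 41672 CPM in the control animals, with 3 rises (Tyrobp, Trem2, C1qc) and 1 fall (Tmem119).

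**Figure D3:**
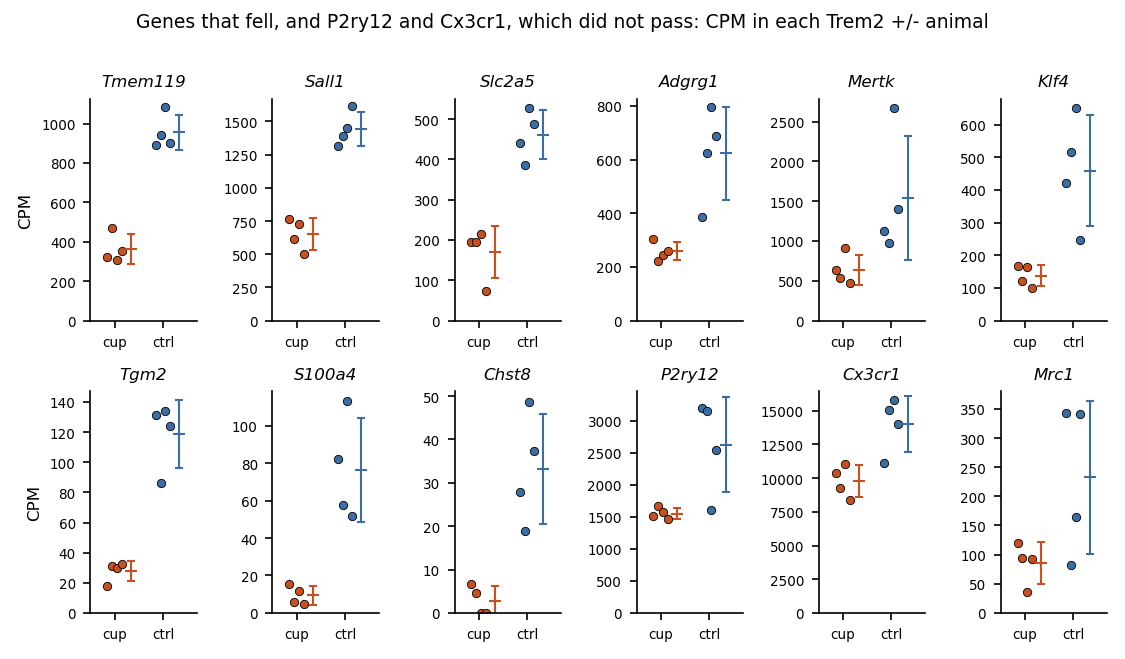
CPM of 10 genes that fell and of P2ry12 and Cx3cr1, which did not pass, in each of the 4 cuprizone (cup, orange) and 4 control (ctrl, blue) Trem2 +/- animals at 12 weeks. Points are animals, the bar beside them is the mean ± 1 SD, cut at 0, and each vertical axis starts at 0. The groups overlap for P2ry12 and for Mrc1.

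Inflammatory mediators rose in part. Of 18 cytokine and inflammatory genes 5 rose and none fell (0 also at an unadjusted p under 0.05, in DESeq2 and in voom), with a median of 0.49, and the rises numbered 2 without 6296 or 9463 and 3 without 9469. Tnf, the inflammatory cytokine, had 281, 270.3, 407.5 and 622 CPM in the cuprizone animals, against 141, 191, 155 and 70 CPM in the control animals. Cuprizone animal 9469 was the highest and the groups did not overlap (1.5 ± 0.33, adjusted p = 0.00365). Il1b had 534, 453, 868 and 607 CPM in the cuprizone animals, against 412, 234, 448.5 and 185 CPM in the control animals. The groups came close (0.94 ± 0.26, adjusted p = 0.0288), and the call was lost without 6296, 9469, 944 or 9463 (adjusted p = 0.185 at most). Csf1, a growth factor for microglia, rose by 1.92 ± 0.52 and lost its call without 2476, 6296, 9469, 943, 7674 or 9463 (adjusted p = 0.134 at most).

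Of 18 chemokine genes 7 rose and none fell (0 also at an unadjusted p under 0.05, in DESeq2 and in voom), with a median of 0.57. The rises numbered 4 without 7674. Ccl6, a chemokine of myeloid cells, had 1659, 1922, 2689 and 2580 CPM in the cuprizone animals, against 345, 421, 649 and 337 CPM in the control animals. Control animal 7674 was the highest of the controls and below the lowest cuprizone animal (2.34 ± 0.32, adjusted p = 7.37e-06). Cxcl2, which attracts neutrophils, had 295, 318, 225 and 243 CPM in the cuprizone animals, against 110.1, 136, 49.5 and 81.3 CPM in the control animals. No overlap was seen (1.51 ± 0.33, adjusted p = 0.00284). Cxcl14 had 50.6, 84.5, 40.2 and 98.2 CPM in the cuprizone animals, against 0, 11.4, 6.95 and 0 CPM in the control animals, with no tag in 943 and 9463 (3.98 ± 0.96, adjusted p = 0.0083), and Cxcl16, the membrane-bound ligand of CXCR6, rose by 2.12 ± 0.50 (adjusted p = 0.00654).

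Interferon and antigen presentation genes rose in part. Of 25 interferon genes 4 rose and none fell (0 also at an unadjusted p under 0.05, in DESeq2 and in voom), with a median of 0.50. Lgals3bp, a secreted glycoprotein, had 359.9, 318, 431 and 460.4 CPM in the cuprizone animals, against 162, 22.1, 67.8 and 36.7 CPM in the control animals. Control animal 943 was the highest of its group (2.46 ± 0.48, adjusted p = 0.00188). Ifi27l2a rose by 2.27 ± 0.51 and Bst2, the virus tether, by 1.15 ± 0.24. Of 19 genes of antigen presentation 4 rose and none fell, again 0 by the other counts, with a median of 0.57. The rises numbered 2 without 9469, 944 or 9463 and 7 without 943. B2m, the light chain of class I molecules, had 4859, 5209, 3274 and 5372 CPM in the cuprizone animals, against 2341, 2136, 1049 and 2000 CPM in the control animals. Control animal 7674 was the lowest (1.33 ± 0.24, adjusted p = 0.000211). H2-D1, a class I heavy chain, had 946.5, 948, 935 and 1070 CPM in the cuprizone animals, against 559.8, 246, 219.9 and 230 CPM in the control animals, and its tags may be shared with near-identical class I genes (1.61 ± 0.31, adjusted p = 0.000599). C1qc, a chain of the complement starter C1q, was the 1 gene that passed of 13 complement genes (1.16 ± 0.27, adjusted p = 0.00771). That is 7.69% of the list, against 1.88% of the genes tested.

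Genes of energy metabolism rose in part and none of them fell. Of 21 genes of glycolysis and hypoxia 5 rose, with a median of 1.24. Some members had few tags and did not pass. Means in the cuprizone and control animals were 19.7 and 4.85 CPM for Gapdh and 3.86 and 7.10 CPM for Pgk1. Pkm, pyruvate kinase, had 174, 197, 123 and 305 CPM in the cuprizone animals, against 82.1, 35.4, 75.6 and 32.7 CPM in the control animals. Values of the diets were apart (1.83 ± 0.39, adjusted p = 0.00207). Tpi1, triosephosphate isomerase, had 30.5, 38.3, 31.6 and 43 CPM in the cuprizone animals, against 6.84, 3.16, 4.35 and 4 CPM in the control animals. There was no overlap (2.97 ± 0.68, adjusted p = 0.00489), though processed copies of this gene may share tags. Egln3, the oxygen sensor of hypoxia-inducible factors, had 12.4, 3.9, 23 and 41.4 CPM in the cuprizone animals, against 0, 0, 0 and 0 CPM in the control animals. With no tag in any control animal it was at least 36.6-fold higher on cuprizone (adjusted p = 0.00955). Hif1a rose by 1.18 ± 0.29 and lost its call without 9469 (adjusted p = 0.0648), and Aldoa rose by 1.55 ± 0.41 and lost it without 2476, 6296 or 9463 (adjusted p = 0.119 at most).

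Nuclear genes of the respiratory chain gave 23 rises of 76 tested (30.3%, against 1.88%) and a median of 0.97, and 17 to 23 rose when any 1 library was left out. Cox6b1, a subunit of complex IV, had 439, 533, 561 and 488 CPM in the cuprizone animals, against 201, 109.9, 130.4 and 143 CPM in the control animals. All cuprizone animals were above all control animals (1.80 ± 0.27, adjusted p = 6.7e-06). Ndufb11 of complex I rose by 1.85 ± 0.44, and Uqcrb and Uqcr11 of complex III by 1.66 ± 0.38 and 1.78 ± 0.44. Of 13 mitochondrially encoded genes of the list 8 were tested. Of these 8 genes 4 rose, with a median of 1.11, but 1 rose without 2476 or 7674 and 2 without 9469 or 9463. The genes mt-Atp6, mt-Atp8, mt-Co3 and mt-Nd4l had no tag in the 8 libraries, and mt-Co2 was too low to be tested. The mitochondrial share of the counts thus covers only part of the mitochondrial genes. The gene mt-Cytb had 5616, 7811, 6402 and 8736 CPM in the cuprizone animals, against 5602, 3189, 1513 and 2634 CPM in the control animals. Control animal 943 almost reached the lowest cuprizone animal (1.22 ± 0.27, adjusted p = 0.00518).

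Cytosolic ribosomal protein genes gave 27 rises of 81 tested (33.3%, against 1.88%) and a median of 1.14, with 22 to 25 rises when any 1 library was left out. Rps26, a small subunit protein, had 1578, 1845, 1233 and 1433 CPM in the cuprizone animals, against 637.5, 196, 201 and 328 CPM in the control animals. Control animal 943 was the highest of its group (2.21 ± 0.28, adjusted p = 1.21e-07). Rpl39, Rps25 and Rpl29 rose by 1.83 ± 0.38, 1.69 ± 0.39 and 2.91 ± 0.65. Ribosomal protein genes have many processed copies in the genome that may share tags. Some members had few tags or none. Rpl24, counted among the 81 tested, had no tag in the 8 libraries. Rps6 was at a mean of 0.384 CPM in the cuprizone animals and 0.5 CPM in the control animals. The ribosomal share of the counts thus covers only part of these genes. The mitochondrial and ribosomal shares of the counts given above moved with the diet in these 8 libraries, and their part in the rises of these 3 lists was not tested.

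Genes of iron and redox defence rose in 4 of 24 cases and fell in none (0 also at an unadjusted p under 0.05, in DESeq2 and in voom), with a median of 0.63. Fth1, the heavy chain of the iron store ferritin, had 4466, 4180, 4224 and 4001 CPM in the cuprizone animals, against 1227, 1656, 1368 and 1451 CPM in the control animals. The groups were far apart and tight (1.56 ± 0.20, adjusted p = 2.25e-07). Mt1, a metallothionein that binds copper and zinc, had 337, 528, 387.5 and 509.5 CPM in the cuprizone animals, against 303, 126, 80 and 108 CPM in the control animals. Control animal 943 came closest to the cuprizone animals (1.55 ± 0.34, adjusted p = 0.00365). Prdx1, a peroxidase, rose by 1.46 ± 0.29 (adjusted p = 0.000971). Atox1, a copper chaperone, rose by 1.38 ± 0.37 and lost its call without 2476, 6296, 943 or 7674 (adjusted p = 0.15 at most).

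Immediate early and heat shock genes, which respond to dissociation of tissue, gave 1 fall and no rise among 25 by edgeR (8 lower and 1 higher at an unadjusted p under 0.05, 1 lower and 0 higher in DESeq2, 1 and 1 in voom), with a median of -0.36. Klf4, a zinc finger factor, had 167, 121, 165 and 99 CPM in the cuprizone animals, against 419.8, 515, 651 and 248 CPM in the control animals. The groups did not overlap (-1.73 ± 0.30, adjusted p = 0.00013). Of 15 genes of the integrated stress response 1 rose (6.67%, against 1.88% of the genes tested). It was Atf5, a transcription factor (1.97 ± 0.36, adjusted p = 0.000242). Of 22 proliferation genes 0 passed in edgeR, 2 rose in DESeq2 and 1 in voom, and 4 were higher and 0 lower at an unadjusted p under 0.05. Cdk1, the kinase of mitotic entry, had 44.9, 16.2, 57.4 and 44.5 CPM in the cuprizone animals, against 9.95, 19.6, 10.4 and 2.67 CPM in the control animals. The groups overlapped (1.94 ± 0.67, adjusted p = 0.125).

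The steepest rises outside these lists included genes close to 0 on control diet. Scimp, an adaptor that links surface receptors to Src family kinases in antigen-presenting cells, had 47.5, 31.8, 32.3 and 53.7 CPM in the cuprizone animals, against 0, 0, 0 and 0 CPM in the control animals. It was at least 80.8-fold higher on cuprizone, against a floor of 3 counts over the control group (adjusted p = 0.000944). Dkk2, a secreted modulator of Wnt signalling, had 42.9, 71.5, 73.9 and 54.5 CPM in the cuprizone animals, against 0, 0.632, 0 and 0 CPM in the control animals. Control animal 944 alone of its group had a tag of it, so that the fitted size depends on the prior count (8.25 ± 1.46, adjusted p = 0.000182). Pianp, a membrane protein ligand of the receptor PILR-alpha, had 153, 133, 262 and 263 CPM in the cuprizone animals, against 3.73, 0, 2.61 and 0.667 CPM in the control animals. The groups were far apart (6.90 ± 0.81, adjusted p = 1.76e-08). Chst2, a sulfotransferase of carbohydrate chains, had 101, 157, 171.5 and 145 CPM in the cuprizone animals, against 3.73, 4.42, 0.869 and 6 CPM in the control animals, again with a wide gap (5.20 ± 0.59, adjusted p = 8.46e-09). Postn, Actr3b and Cks1b rose by 5.35 ± 1.15, 5.07 ± 1.19 and 5.18 ± 1.09, and AF529169 rose as well, with tags in 1 control animal. Cks1b in cuprizone animal 9469, at 114 CPM, stood apart from the other cuprizone animals, at 21.7 to 35.9 CPM.

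Some genes that are best known from other cells rose too. Flt1, the receptor VEGFR1 of endothelial cells and also of myeloid cells, had 176, 187, 340.1 and 199.5 CPM in the cuprizone animals, against 28.6, 41.1, 29.6 and 30 CPM in the control animals. No overlap was seen (2.78 ± 0.43, adjusted p = 1.81e-05). Flt1 was the 1 gene that passed of 10 endothelial markers (10%, against 1.88% of the genes tested). The median of these markers was -0.45. Their summed level was 256 to 532 CPM in the cuprizone animals and 113 to 189.5 CPM in the control animals, Flt1 included. Cldn5 had 10.8, 6.5, 19.4 and 12.3 CPM in the cuprizone animals, against 20.5, 21.5, 22.6 and 18 CPM in the control animals. Pecam1 had 12.4, 18.2, 10.8 and 20.7 CPM in the cuprizone animals, against 13.1, 37.3, 20.9 and 36.7 CPM in the control animals. Neither passed. Cspg4, the proteoglycan NG2 of oligodendrocyte precursors and pericytes, had 25.8, 56.5, 31.6 and 30.7 CPM in the cuprizone animals, against 0, 0.632, 0 and 2 CPM in the control animals. Its rise (5.61 ± 1.49, adjusted p = 0.0244) was lost without 2476, 943, 944 or 7674 (adjusted p = 0.0936 at most). Cspg4 was the 1 gene that passed of 6 precursor markers (16.7%, against 1.88% of the genes tested). The monocyte marker Fn1, fibronectin, rose by 4.32 ± 1.07 and lost its call without 944, 7674 or 9463 (adjusted p = 0.0877 at most). Fn1 was the 1 gene that passed of 5 monocyte markers tested (20%, against 1.88% of the genes tested). Of these 5 markers 2 were positive and 3 negative, with a median of -0.95. Ly6c2 and Ccr2, which define monocytes, were at 0 to 6.20 CPM and 2.30 to 38.3 CPM in the cuprizone animals. In the control animals they were at 0 to 8.09 CPM and 8.69 to 31.7 CPM.

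Among the largest falls, Chst8, a sulfotransferase of pituitary hormones, had 6.71, 4.55, 0 and 0 CPM in the cuprizone animals, against 28, 18.9, 48.7 and 37.3 CPM in the control animals. In 2 cuprizone animals it had no tag (-3.51 ± 0.83, adjusted p = 0.00678). S100a4, a calcium-binding protein of motile cells, had 15.5, 5.85, 11.5 and 4.6 CPM in the cuprizone animals, against 82.1, 57.5, 113 and 52 CPM in the control animals. Values of the diets were apart (-2.94 ± 0.66, adjusted p = 0.00573). Tgm2, a transglutaminase, had 18.1, 31.2, 30.1 and 32.2 CPM in the cuprizone animals, against 131, 85.9, 134 and 124 CPM in the control animals. All cuprizone animals were below all control animals (-2.07 ± 0.36, adjusted p = 0.000142). Cd79b, a chain of the B cell receptor that is also transcribed in microglia, had 0, 0, 0 and 0 CPM in the cuprizone animals, against 16.8, 15.2, 9.56 and 22 CPM in the control animals. With no tag in any cuprizone animal it was at least 33.5-fold lower on cuprizone, against a floor of 3 counts over the cuprizone group (adjusted p = 0.00998). Cd79a and Ms4a1, markers of B cells, had no tag in the 8 libraries. Gbp7, an interferon-induced GTPase, fell by 1.92 on the log2 scale (adjusted p = 0.00719). These 5 genes kept the call without each library. In other settings S100a4 and Gbp7 lost the call under voom, and Chst8 lost it with the 8 libraries alone. With the females alone Chst8, Cd79b and Gbp7 lost it. Phrf1, Ipo8, Esyt2, Ovca2, Pxk, Plxna4, Zzef1, BC002059, Nars2 and Hdc, also selected as the largest falls, each lost it without 3 to 7 of the 8 libraries. Hdc had no tag in any cuprizone animal and was at least 17.6-fold lower on cuprizone, and Nars2 had tags in 1 cuprizone animal. The log2 fold changes of the other 8 ran from -2.85 to -1.83.

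Markers of other cells in the Cd11b gate were low and gave few calls. Border macrophage markers gave 2 falls and no rise among 10 (4 lower at an unadjusted p under 0.05; 2 lower in DESeq2 and in voom), with a median of -0.72, and a summed level of 345 to 638 CPM in the cuprizone animals and 469 to 1231 CPM in the control animals. Mrc1, the mannose receptor, had 120.3, 94.2, 35.9 and 92.1 CPM in the cuprizone animals, against 343, 82.1, 164 and 342 CPM in the control animals. The groups overlapped (-1.44 ± 0.34, adjusted p = 0.00829), and the call was lost without 6296 or 9463 (adjusted p = 0.103 at most). Cd163, a scavenger receptor, had 108, 127, 108 and 33.8 CPM in the cuprizone animals, against 253, 182, 337 and 195 CPM in the control animals. Cuprizone animal 9469 was the lowest (-1.35 ± 0.33, adjusted p = 0.00975), and the call was lost without 9469, 943 or 7674 (adjusted p = 0.0909 at most).

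Neutrophil markers passed in 0 of 9 cases in edgeR (6 lower at an unadjusted p under 0.05; 1 lower in DESeq2, 0 in voom), all 9 were negative, and their median was -2.23. Their summed level was 111 to 349 CPM in the cuprizone animals and 119 to 1882 CPM in the control animals, and S100a9 had 42.9, 72.8, 77.5 and 121 CPM in the cuprizone animals, against 397.5, 39.8, 685 and 297 CPM in the control animals. Control animal 944 was as low as the cuprizone animals. Mature oligodendrocyte markers passed in 0 of 15 cases in edgeR, DESeq2 and voom (1 lower at an unadjusted p under 0.05), with a median of -0.14 and a summed level of 1086 to 1398 CPM in the cuprizone animals and 1071 to 1231 CPM in the control animals. Astrocyte markers passed in 0 of 13 cases in each tool (1 lower at an unadjusted p under 0.05), with a median of -0.65. The part of other cells in the falls of Mrc1, Cd163 and S100a4 was not tested.

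The 359 calls were then followed in animals that share no library with this comparison. In wild-type mice at 12 weeks 249 of the 265 rises were positive (94%, against 52.8% of the genes tested) and 80 of the 94 falls negative (85.1%, against 47.2%). The wild-type control libraries 1932 and 9145 were at 16.6 and 42.7 on the first principal component. Wild-type cuprizone libraries were at -11.0 to -3.8, and heterozygous control 7674 was at 41.3. Library 9145 also had the lowest total count of the microglia libraries, 1043961. The part of these library differences in the shared directions was not tested. Of the rises 50 were also called there, which is 18.9% of the 265 and 51.5% of the 97 genes called higher in wild types (0.689% of the genes tested), and of the falls 12, which is 12.8% of the 94 and 31.6% of 38. In the same heterozygous genotype at 5 weeks 251 rises were positive (94.7%, against 48.9%) and 68 falls negative (72.3%, against 51.1%), and 28 rises and 1 fall were called (37 genes were called higher there, 0.263% of those tested, and 2 lower, 0.0142%, with 8.15% at an unadjusted p under 0.05). In knockouts at 12 weeks 194 rises were positive (73.2%, against 48.6%) and 43 falls negative (45.7%, against 51.4%), and 4 rises and 0 falls were called. Those 4 were the calls made in knockouts, 0.0284% of the genes tested, with 1048 genes (7.44%) at an unadjusted p under 0.05. The 265 rises had a median log2 fold change of 1.56 in the heterozygotes at 12 weeks, 0.96 in wild types, 0.84 in the heterozygotes at 5 weeks and 0.37 in knockouts. The 94 falls had medians of -1.32, -0.66, -0.28 and 0.02 in that order. A change chosen for being large in the heterozygotes at 12 weeks is likely to be smaller elsewhere, so that these medians do not by themselves order the groups. The 4 called in knockouts were Apoe (2.03 ± 0.25, adjusted p = 1.13e-06), Clec7a (2.45 ± 0.35, adjusted p = 3.16e-05), Cst7 (3.32 ± 0.54, adjusted p = 0.00321) and Chst2 (3.53 ± 0.64, adjusted p = 0.00321).

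**Figure D4:**
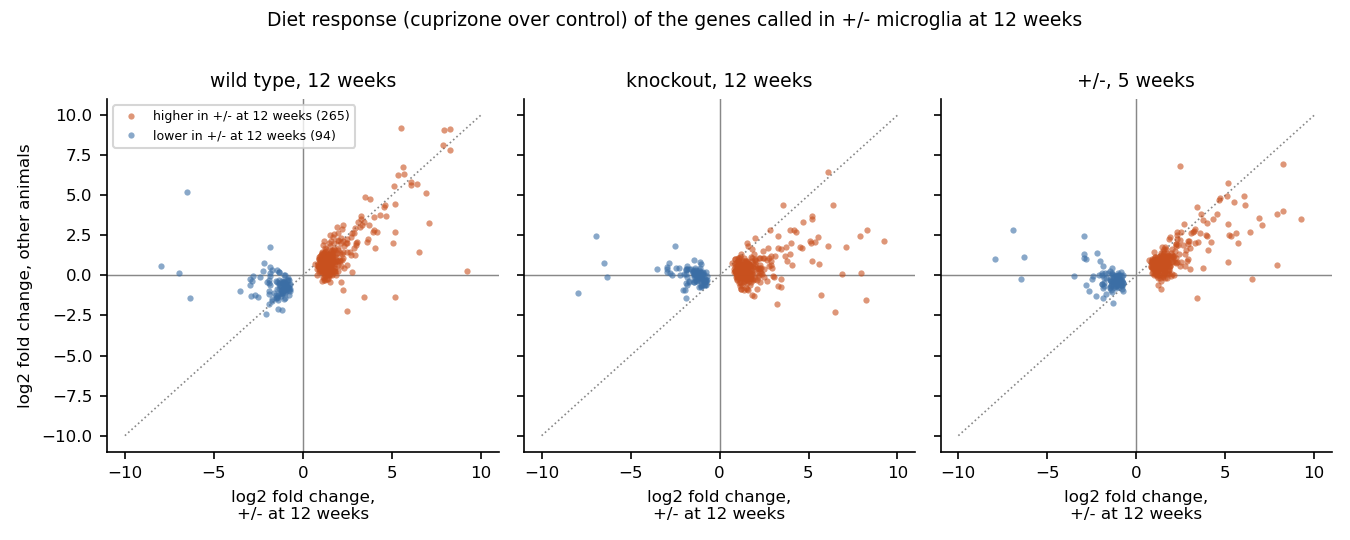
Log2 fold changes, cuprizone over control diet, of the 265 genes called higher (orange) and 94 called lower (blue) in Trem2 +/- microglia at 12 weeks. The horizontal axes give that response and the vertical axes the response in wild-type animals at 12 weeks, knockout animals at 12 weeks and +/- animals at 5 weeks; the dotted line marks equal responses. Of the rises 249, 194 and 251 lie above 0 in these animals.

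The diet response at 12 weeks differed between heterozygotes and wild types for 0 genes in edgeR (1059 at an unadjusted p under 0.05, 7.52% of the genes tested; 16 in DESeq2 and 2 in voom). Between 12 and 5 weeks in heterozygotes it differed for 0 genes in edgeR (1008 at an unadjusted p under 0.05, 7.16%; 28 in DESeq2 and 0 in voom). With 2 wild-type control animals and 3 per group at 5 weeks, such a count does not show that the responses were alike. For Apoe the response of heterozygotes exceeded that of wild types by 0.33 ± 0.35 (adjusted p = 0.893) and for Trem2 by 1.13 ± 0.45 (adjusted p = 0.562).

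Against knockouts 18 genes differed (0.128% of the genes tested, with 1389, or 9.86%, at an unadjusted p under 0.05), and each had the larger response in heterozygotes. Of the 18, 17 were among the 265 rises, and Il1a was the other. Apoe, whose levels in the heterozygotes are given above, had 3666 to 4789 CPM in cuprizone-fed and 984 to 1124 CPM in control-fed knockouts, and its responses differed by 1.96 ± 0.33 (adjusted p = 0.00239). Lpl had 56.5 to 123 CPM and 12.5 to 43.7 CPM in the knockouts on cuprizone and control diet (difference of responses 2.92 ± 0.62, adjusted p = 0.0448). Pianp was at 0 to 3.56 CPM and 0.682 to 1.98 CPM there (6.79 ± 1.39, adjusted p = 0.03), and Cstb, an inhibitor of cathepsins, at 123 to 283 CPM and 191 to 212 CPM (2.33 ± 0.42, adjusted p = 0.00462). Tmem176a, a membrane protein of antigen-presenting cells, was at 27.6 to 35.6 CPM and 56.6 to 101 CPM (3.25 ± 0.61, adjusted p = 0.00919). The others were Dkk2, Ndufb11, Phlda1, Ubxn1, the chemokines Cxcl2 and Ccl6, Smarcc2, Bola2, Zcrb1, Rps26, Tmem256 and Cd52, with differences of 1.60 to 9.78. For Dkk2 the knockouts were close to 0 on both diets, at 0 to 0.657 CPM and 0 to 5.46 CPM, so that the size of its difference depends on the prior count.

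This count moved with single libraries. It was 3 (Apoe, Tmem176a and Pianp) without knockout cuprizone animal 981, 5 without heterozygous cuprizone animal 2476 and 10 without 6296, 7674 or the knockout control animals 1744 or 8635. It was 11 without 9463, 31 without 944 and 38 without knockout cuprizone animal 1748. The knockout cuprizone libraries 981 and 1748 were at 35.5 and 26.4 on the first principal component, against -4.9 in 9542, and with the share of non-coding genes as a covariate 5 genes passed (Cd52, Apoe, Cstb, Tmem176a and Pianp). The difference for Apoe and for Tmem176a passed without each of the 14 libraries in turn, that for Cstb without each but 981 (adjusted p = 0.0518). The difference for Lpl was lost in 9 of these 14 fits (adjusted p = 0.153 at most) and under voom. The remaining genes lost theirs in 2 (Pianp) to 12 (Phlda1) of these fits. Under voom, Cstb passed, and Apoe (adjusted p = 0.0673), Tmem176a (adjusted p = 0.0752) and Pianp (adjusted p = 0.0673) did not. The genes Cst7, Clec7a and Gpnmb, whose levels are given above, did not pass this test (1.38 ± 0.67, 0.81 ± 0.45 and -0.41 ± 1.53; adjusted p = 0.501, 0.568 and 1).

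**Figure D5:**
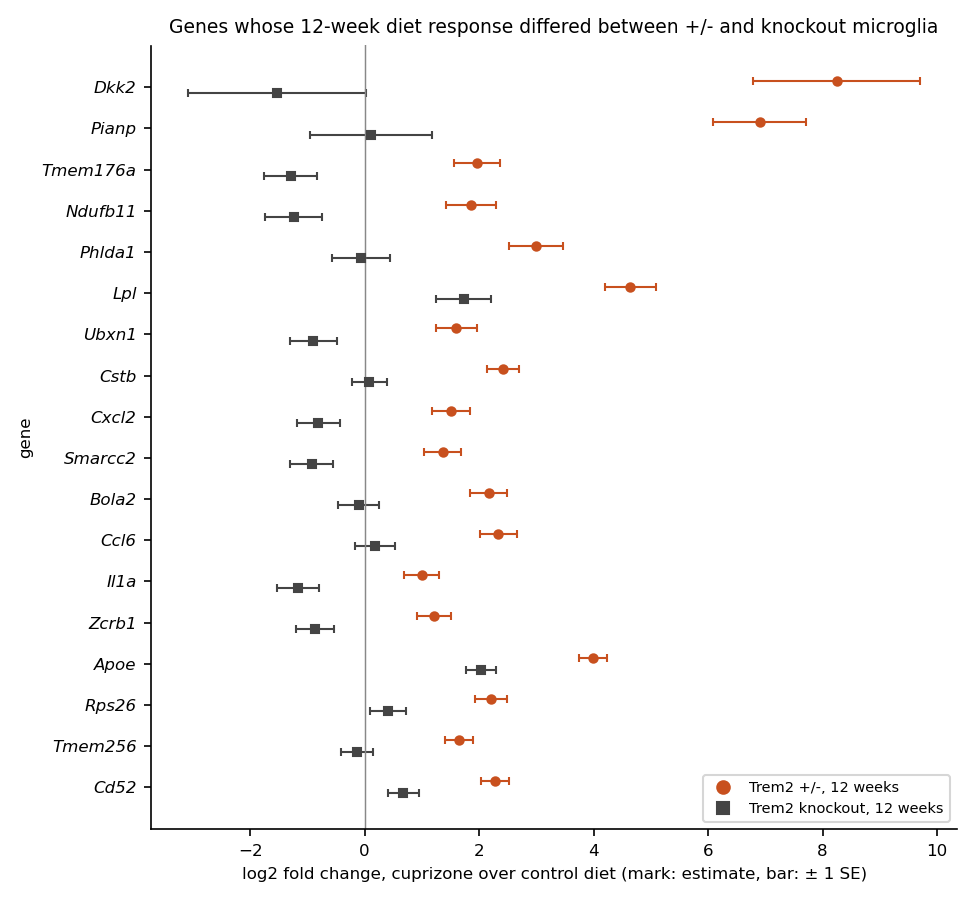
Log2 fold changes, cuprizone over control diet, at 12 weeks in Trem2 +/- (orange circles) and Trem2 knockout (dark squares) microglia for the 18 genes whose responses differed, with bars of ± 1 SE. For each gene the heterozygous response lies to the right of the knockout response, and for 11 of them the knockout estimate is below 0.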

How the data were processed

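Libraries were made per animal with QuantSeq 3′ FWD from RNA of sorted cells, and the deposited table holds raw counts per gene made by the authors. STAR, FastQC 0.11.5, MultiQC and R 3.4.3 and the build GRCm38.p6 are named in the submitters' processing notes. No source used here names the counter, its annotation, or how strand and molecular identifiers were used. The labels call each microglia library a separate animal, and each animal also gave a library of non-microglia cells.

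Genes were filtered with filterByExpr (minimum count 10), and 14087 of 49912 were tested in edgeR 4.0.16 (R 4.3.3), with TMM scaling and a quasi-likelihood fit of group and sex over the 37 microglia libraries. P-values were adjusted over the genes tested by Benjamini and Hochberg, and calls were made at 0.05. SE, printed after ± for log2 values, is the absolute log2 value divided by the square root of the quasi-likelihood F statistic. It approximates a standard error, was not estimated directly, and is unreliable for genes with almost no tags. DESeq2 1.42.0 and limma 3.58.1 (voom) were alternatives, beside those of the closing section. Share comparisons used exact permutation in SciPy 1.17.1. Coordinates are from GENCODE M21 on GRCm38, matched by identifier for 47180 of 49912 genes.

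The genes named are Trem2, the 15 largest rises and falls without overlap (average log2 CPM of at least 3, no predicted or sex-linked genes), up to 5 called members per list or its member of smallest p, up to 5 genes per direction of each interaction, and defining markers. Other genes named were chosen after their values were seen, and some selected genes are not named. The comparison and the lists were chosen with earlier results of these data known.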

Additional observations from a re-analysis of the deposited data

Results flagged for a closer look

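Within each diet group of 4, the gap of the highest or lowest animal to its nearest neighbour was divided by the range of the group and compared with the critical value of Dixon for 4 samples. Of 268 groups examined 22 exceeded it. The chance rate of about 1 in 20 holds for normally distributed values and cannot be set against this count. Where only 1 animal of a group has tags, the ratio is 1 whatever its level. That was so for AF529169, Apoc1, Dkk2, Fdft1, Hba-a1 and Nars2, whose ratios therefore carry no information. Each value below is that ratio, followed by the level of the animal and of the others of its group. Single animals stood apart for BC002059 in cuprizone animal 9469 (0.91; 3.84 CPM, against 20.1 to 21.7 CPM in the others) and Cks1b in cuprizone animal 9469 (0.847; 114 CPM, against 21.7 to 35.9 CPM in the others). So did Esyt2 in cuprizone animal 6296 (0.88; 15.8 CPM, against 6.71 to 7.8 CPM in the others) and Flt1 in cuprizone animal 6296 (0.857; 340.1 CPM, against 176 to 199.5 CPM in the others). A like gap was found for H2-D1 in cuprizone animal 9469 (0.904; 1070 CPM, against 935 to 948 CPM in the others) and H2-DMa in cuprizone animal 9469 (0.962; 313 CPM, against 161 to 166.5 CPM in the others). Further gaps were those for Inpp5d in cuprizone animal 9469 (0.838; 355 CPM, against 270.3 to 284 CPM in the others) and Nars2 in cuprizone animal 1040 (1; 0.516 CPM, against no tag in the others). The last in the cuprizone group were those for Slc2a5 in cuprizone animal 9469 (0.86; 74.4 CPM, against 196 to 215 CPM in the others) and Tgm2 in cuprizone animal 1040 (0.852; 18.1 CPM, against 30.1 to 32.2 CPM in the others). Among the control animals the ratio was exceeded by AF529169 in control animal 7674 (1; 0.869 CPM, against no tag in the others) and Apoc1 in control animal 9463 (1; 7.33 CPM, against no tag in the others). It was also exceeded by BC002059 in control animal 944 (0.944; 115 CPM, against 45.4 to 49.3 CPM in the others) and Dkk2 in control animal 944 (1; 0.632 CPM, against no tag in the others). Next came Fabp5 in control animal 9463 (0.881; 7.33 CPM, against 0 to 0.869 CPM in the others) and Fdft1 in control animal 943 (1; 1.24 CPM, against no tag in the others). To these add Flt1 in control animal 944 (0.888; 41.1 CPM, against 28.6 to 30 CPM in the others) and Gla in control animal 944 (0.906; 60.6 CPM, against 18.7 to 22.6 CPM in the others). Others were Gpnmb in control animal 7674 (0.855; 18.2 CPM, against 1.26 to 3.73 CPM in the others) and H2-D1 in control animal 943 (0.924; 559.8 CPM, against 219.9 to 246 CPM in the others). The remaining one was Hba-a1 in control animal 944 (1; 0.632 CPM, against no tag in the others). Non-coding genes took 6.87% of the counts in cuprizone animal 2476 and 7.91% to 7.96% in the others (0.951).

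The diet response at 12 weeks differed between heterozygotes and knockouts for 18 genes, by the interaction term of edgeR at an adjusted p under 0.05. The differences in log2 fold change, heterozygotes minus knockouts, were Cd52 (1.60), Tmem256 (1.78), Rps26 (1.80), Apoe (1.96), Zcrb1 (2.08), Il1a (2.16), Ccl6 (2.16), Bola2 (2.27), Smarcc2 (2.29), Cxcl2 (2.33), Cstb (2.33), Ubxn1 (2.49), Lpl (2.92), Phlda1 (3.06), Ndufb11 (3.09), Tmem176a (3.25), Pianp (6.79) and Dkk2 (9.78). Each was larger in the heterozygotes.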

How the results depend on the processing

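Of the 359 calls, no gene that was tested under an alternative changed its direction. The total was 361 with the size factors of DESeq2, 464 with voom, 436 with no filter, 336 with no sex term and 605 (212 falls) in the DESeq2 Wald test. With the 8 libraries alone 41 genes fell, and with the 6 females alone 156 genes passed, 142 higher and 14 lower. Leaving out 1 library at a time gave 261 to 347 calls, 202 to 251 rises and 48 to 96 falls. For the difference from knockouts the count was 108 in DESeq2, 82 with no filter, 5 with the share of non-coding genes as a covariate (added after seeing the data) and 3 to 38 with 1 library left out. For the difference from wild types it was 16 in DESeq2, 2 in voom, 44 with no filter and 0 to 1 with 1 library left out, and for that between 12 and 5 weeks 28 in DESeq2, 14 with no filter and 0 to 1. The cause of these shifts was not tested. Of 114 named calls 53 held in each setting in which the gene was tested. With the 8 libraries alone and with the females alone 109 of the 114 were tested. No paired analysis was possible because the groups compared share no animal and no replicate number. Depth limits genes of a few tags per library, whose fold changes depend on the prior count.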
